A study of Mus musculus with 30 samples.

Results

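A set of 9 genes of fatty acid oxidation and of related steps of lipid and fuel use was followed in the ventral prostate (VP) of mice. Peroxisome proliferator-activated receptors (PPARs) are known to switch on these genes, namely Cpt1a, Cpt2, Acadm, Ehhadh, Pecr, Acot1, Acot2, Pdk4 and Angptl4. They were chosen by name, as known PPAR target genes, but with earlier results of these data known, so they are not independent evidence. They were found by symbol through the Ensembl identifiers of the count tables. All 9 were among the 39179 genes of the tables and among the 16605 that passed the filter on low counts over the 6 groups. RNA of the VP was sequenced from 30 male C57BL/6 mice, 5 for each diet and time point. The normolipidic diets, given from weaning for 12 or 32 weeks, differed in their fat, which was linseed oil in the LO group, soybean oil in the SO group and lard, called pork fat in the labels, in the PF group. LO is rich in ω-3 and SO in ω-6 polyunsaturated fatty acids, while PF is rich in saturated fatty acids. Mice of the 32 week groups were on the diet longer and were also older. Time on the diet cannot be told apart from age or from any handling that differed between the time points. The word age stands below for the time point. Whole VP tissue was used, so that epithelium, stroma and attached fat are mixed in each sample, and a change in the number of cells of a type cannot be told apart from a change in the RNA of each cell.

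PPARs are nuclear receptors that bind fatty acids and, joined to a retinoid X receptor, sit on DNA at repeats of the hexamer AGGTCA separated by a single base. PPARα drives the use of fatty acids in liver, heart and muscle during fasting, PPARδ does so in many tissues, and PPARγ directs fat storage in adipocytes. Long-chain fatty acids are joined to coenzyme A, carried into mitochondria by the carnitine shuttle and shortened there by β-oxidation, whereas very long chains are first shortened in peroxisomes. In the prostate, whose epithelium secretes citrate, lipid oxidation is best known as a fuel route of tumour cells.

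The clearest diet difference lay at 32 weeks between mice fed PF and mice fed SO, where all 9 genes had a higher fitted level in PF and the median log2 fold change was 0.22, against -0.0031 over the 16218 genes tested. Of all genes tested, 49.3% were higher in PF. Pecr was 0.46 higher (SE 0.0885), Acot1 0.52 higher (SE 0.138) and Angptl4 1.19 higher (SE 0.359) on the log2 scale. At 12 weeks the same comparison had the opposite balance, with 2 of the 9 genes higher in PF and 7 lower, and Cpt1a showed the smallest p-value, 0.36 lower in PF. No diet difference of the 9 genes passed the threshold of edgeR's quasi-likelihood test, an adjusted p-value under 0.05 after Benjamini-Hochberg adjustment over all genes, and that test called 0% of all genes in each of the 6 diet comparisons. Between PF and SO at 32 weeks, Pecr and Acot1 passed that threshold in the Wald test of DESeq2, a tool named by the submitters. Levels are given below in CPM (read pairs on a gene per 1000000 pairs on genes of that mouse), scaled between mice by the trimmed mean of M-values (TMM).

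As a check of the tissue, 8 markers of ventral prostate epithelium, among them the spermine-binding protein gene Sbp, made up between 10.7% and 33.6% of the scaled counts of a mouse, and none of 6 markers of seminal vesicle and other accessory glands was over 0.153 CPM in any mouse. Between 27590631 and 41301707 read pairs (median 33684704) were counted on genes per mouse. The lowest count of any of the 9 genes in a mouse was 61, for Pdk4, and the highest was 6318, for Cpt1a. Samples of a group are numbered 1 to 5 in the labels and are taken here as separate mice, so that p-values measure the spread between these mice. Markers of fat cells, blood cells and leucocytes were uneven between mice, and their values are given beside the results they moved with.

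Per kilobase of exon, Pecr had the highest mean level of the 9 genes over the 30 mice, 20.4 ± 3.56 CPM per kb (SD), followed by Cpt1a with 17.8 ± 3.11. Pecr was above Cpt1a in 22 of 30 mice. Acadm (14.8 ± 1.87) and Ehhadh (14.3 ± 1.92) did not separate, since Acadm was the higher in 17 of 30 mice and in 3 of 6 group means. Cpt2 with 8.55 ± 0.855, Acot1 with 6.14 ± 1.24 and Acot2 with 3.24 ± 0.685 CPM per kb followed in an order that all 30 mice kept down to Acot2. Angptl4 (1.98 ± 1.15) and Pdk4 (1.52 ± 0.802) were the lowest and crossed in 8 of 30 mice. These last genes were also the most uneven, the highest mouse being 10.8 times the lowest for Angptl4 and 8.15 times for Pdk4, against between 1.53 times (Acadm) and 2.73 times (Cpt1a) for the other 7. Their within-group SDs on the log2 scale were 0.660 and 0.664, near the 91.0 and 91.2 percentiles of all genes (median 0.244), so that a difference of a given size is less precisely measured for them than for Cpt2 or Acadm. The order of the genes per kilobase depends on the lengths used, which were unions of all annotated exons. For Acot1 the union was 3919 bases, against 2272 in its transcript. Without division by length, Acot1 (mean 24.1 CPM) was above Cpt2 (20.4), and Cpt1a (136) was above Pecr (31.0).

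**Figure D1:**
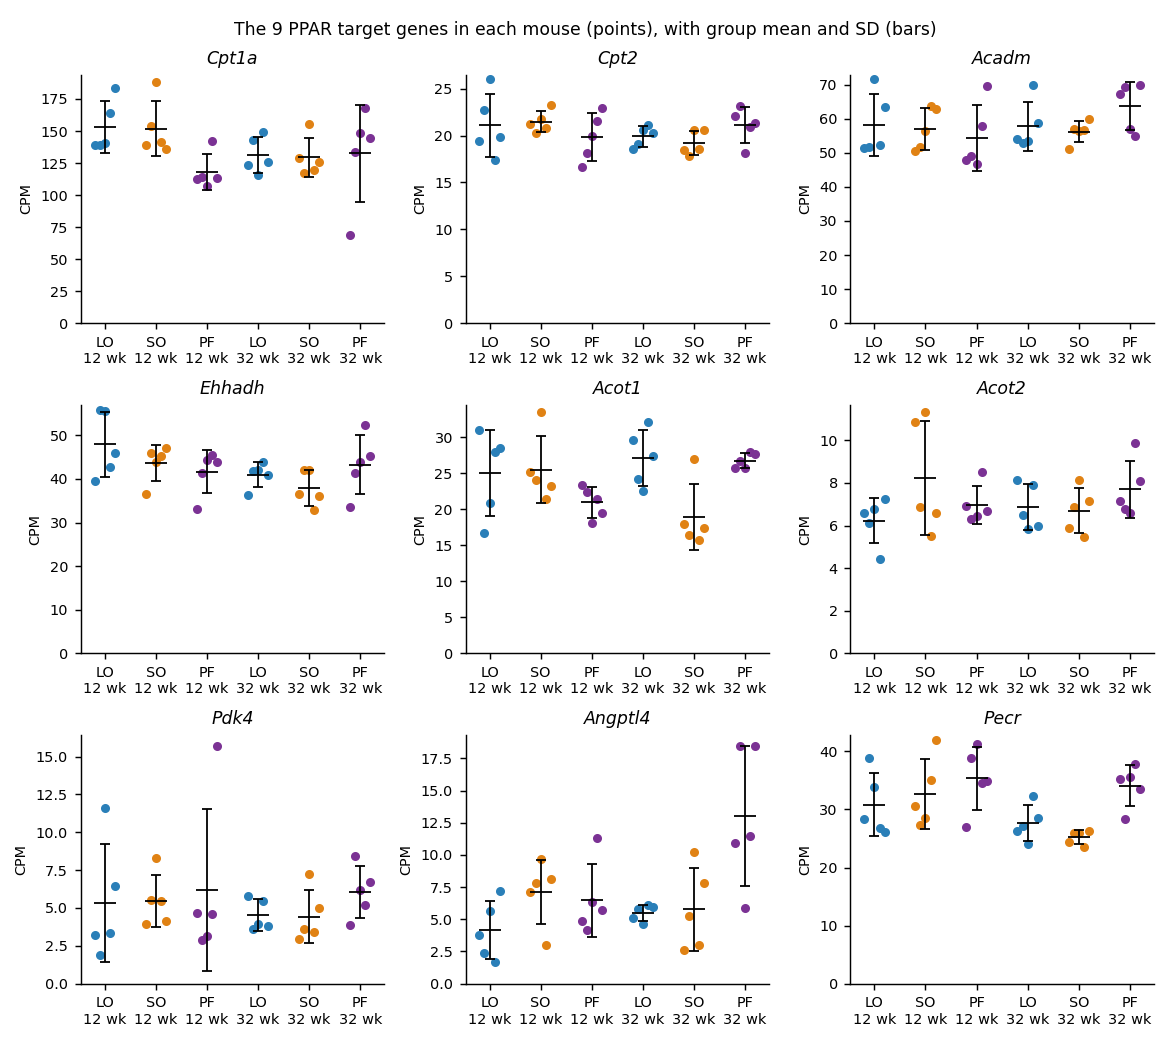
Level in CPM (vertical axis, from 0) of each of the 9 genes in each of the 30 mice (points, 5 per diet and time point), with the group mean and SD as bars. Pecr in PF at 32 weeks lies between 28.4 and 37.8 CPM, above all 5 SO mice of that age, whereas the Angptl4 groups overlap and a single PF mouse at 12 weeks stands at 15.7 CPM of Pdk4.

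The carnitine shuttle is served by Cpt1a, the carnitine palmitoyltransferase of the outer mitochondrial membrane that sets the rate of entry of long-chain fatty acids, and by Cpt2, which releases them as acyl-CoA inside (Cpt1a at chr19:3322334-3385733, plus strand; Cpt2 at chr4:107903981-107923610, minus strand; all positions are on GRCm38). At 12 weeks Cpt1a stood at 139, 139, 141, 164 and 184 CPM in the mice fed LO and at 139, 154, 188, 141 and 136 CPM in those fed SO. Mice fed PF had 113, 114, 107, 142 and 114 CPM. A single PF mouse, number 4, reached into the range of the other diets, and the other 4 were below all 10 mice fed LO or SO.

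Cpt1a was thus 0.36 lower in PF than in SO on the log2 scale (SE 0.111, 95% interval -0.59 to -0.12, adjusted p = 0.256 in edgeR's test and 0.0960 with DESeq2). Against LO the difference was -0.38 (SE 0.111, adjusted p = 0.383 with edgeR and 0.110 with DESeq2). Both comparisons use the same PF mice and are not independent of each other. At 32 weeks no such difference was seen, with means of 131 ± 13.9 CPM in LO, 129 ± 15.2 in SO and 133 ± 37.8 in PF (SD, n = 5 each). The wide spread in PF came from mouse 1, which had 68.8 CPM, the lowest of all 30, while the other PF mice had 134, 149, 168 and 144 CPM. The change of PF against SO from 12 to 32 weeks was 0.40 on the log2 scale (95% interval -0.04 to 0.84, adjusted p = 0.590 in edgeR's interaction test), a size that this spread leaves uncertain. Cpt2 was steady, between 16.7 and 26.0 CPM in all 30 mice, and its largest diet difference was PF against SO at 32 weeks, 0.16 ± 0.0785 (SE) in log2 units, with an adjusted p = 0.478 in edgeR's test.

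The 250 bases before the RefSeq start of Cpt1a (GRCm38.p6, chr19:3323051-3323300, plus strand) and Acadm (chr3:153944644-153944893, minus strand) are shown because they alone among the 8 genes with a window in the RefSeq table hold the PPAR hexamer AGGTCA. Both hold it on the opposite strand, where it reads TGACCT and is set in capitals, 94 bases before the start in Cpt1a and 249 bases before it in Acadm.
Cpt1a: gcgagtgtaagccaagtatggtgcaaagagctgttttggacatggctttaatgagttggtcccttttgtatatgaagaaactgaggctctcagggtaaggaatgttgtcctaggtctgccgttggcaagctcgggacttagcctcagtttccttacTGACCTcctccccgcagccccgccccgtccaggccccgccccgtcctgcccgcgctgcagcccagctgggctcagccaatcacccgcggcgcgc
Acadm: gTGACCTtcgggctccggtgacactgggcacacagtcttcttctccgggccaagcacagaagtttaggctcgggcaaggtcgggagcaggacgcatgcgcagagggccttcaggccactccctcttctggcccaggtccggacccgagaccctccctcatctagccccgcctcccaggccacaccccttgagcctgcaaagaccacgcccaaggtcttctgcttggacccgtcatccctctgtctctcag
The full repeat AGGTCANAGGTCA, searched on both strands, was in 0 of the 8 windows and in 0.0335% of the 32851 windows of the table, and the looser AGGNCANAGGNCA was in 0 of 8 and in 0.338%. The hexamer, which is also part of the full repeat, was in 2 of 8 windows, against 14% of all windows. Known PPAR sites of several of these genes lie outside such short windows, and nothing about binding follows from the letters. Angptl4 had no entry in the table.

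Acadm (chr3:153922357-153944632, minus strand) encodes the medium-chain acyl-CoA dehydrogenase, the first step of mitochondrial β-oxidation for medium chains. After 32 weeks its level was 67.2, 69.1, 57.1, 54.9 and 70.0 CPM in mice fed PF and 51.2, 57.0, 56.2, 56.6 and 59.8 CPM in mice fed SO. PF mice 1, 2 and 5 were above all SO mice, and the other PF mice fell among them. The log2 fold change was 0.20 (SE 0.0908, adjusted p = 0.451 in edgeR's test). Against LO at 32 weeks it was 0.15 (adjusted p = 0.659 with edgeR), and in PF the 32 week mice were 0.23 above the 12 week mice (adjusted p = 0.486).

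Peroxisomal oxidation is represented by Ehhadh (chr16:21761287-21787807, minus strand), the bifunctional hydratase and dehydrogenase that is a classical PPARα target. Pecr (chr1:72259167-72284314, minus strand) is also peroxisomal, the trans-2-enoyl-CoA reductase, which saturates enoyl-CoA in chain elongation. Ehhadh lay between 32.8 and 55.8 CPM in all mice. It was 0.21 higher in PF than in SO at 32 weeks (SE 0.0998, adjusted p = 0.470 in edgeR's test), and 32 week mice differed from 12 week mice by -0.22 in LO (adjusted p = 0.249) and by -0.21 in SO (adjusted p = 0.314).

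Pecr showed the most regular diet difference of the 9 genes. In mice fed PF for 32 weeks it stood at 35.3, 28.4, 35.6, 37.8 and 33.6 CPM. Mice fed SO had 24.5, 25.9, 26.0, 23.5 and 26.3 CPM, and mice fed LO had 26.3, 27.2, 24.1, 32.3 and 28.6 CPM. Every PF mouse was above every SO mouse, and only PF mouse 2, with the lowest PF value, fell within the range of LO.

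The difference of PF from SO in Pecr was 0.46 on the log2 scale (SE 0.0885, 95% interval 0.27 to 0.64), with an adjusted p = 0.204 in edgeR's test and 0.00150 with DESeq2. Leaving out each of the 10 mice in turn, DESeq2 gave differences between 0.42 and 0.51, and the adjusted p for Pecr stayed at or below 0.0137. Against LO the difference was 0.32 (SE 0.0883, adjusted p = 0.341 with edgeR and 0.0735 with DESeq2). At 12 weeks the levels were 28.4, 38.8, 33.9, 26.9 and 26.2 CPM in LO, 30.6, 27.3, 28.5, 35.0 and 41.9 CPM in SO and 27.1, 38.8, 41.3, 34.6 and 34.9 CPM in PF. The 3 diets overlapped widely at that age.

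Within SO, every 32 week mouse had less Pecr than every 12 week mouse, a log2 difference of -0.37 (SE 0.122, adjusted p = 0.0640 with edgeR and 0.0364 with DESeq2). In PF the means at both ages, 35.3 and 34.1 CPM, differed little, and the change of PF against SO over time was 0.32 (95% interval -0.03 to 0.67, adjusted p = 0.584 in edgeR's interaction test). The mean of SO went from 32.7 CPM at 12 weeks to 25.25 at 32 weeks, and that of LO from 30.8 to 27.7. Which diet's change made the difference at 32 weeks was not tested. An antisense gene on the opposite strand, D230017M19Rik, overlaps 175 bases of Pecr exons and stood at 2.1 to 3.8 CPM. Whether the counting used strand is not given in the sources used here, so some of its pairs could be in the Pecr count or the reverse.

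Acot1 (chr12:84009490-84018371, plus strand) and Acot2 (chr12:83987861-83993873, plus strand) are neighbouring acyl-CoA thioesterases, which split long-chain acyl-CoA back into free fatty acid and coenzyme A in the cytosol and in mitochondria. They are near-identical copies over part of their length, and exon 2 of both is shown because it marks how little separates them. Its 203 bases differ at 4 positions, set in capitals (Acot1 at chr12:84014379-84014581 and Acot2 at chr12:83990494-83990696, plus strand).
Acot1: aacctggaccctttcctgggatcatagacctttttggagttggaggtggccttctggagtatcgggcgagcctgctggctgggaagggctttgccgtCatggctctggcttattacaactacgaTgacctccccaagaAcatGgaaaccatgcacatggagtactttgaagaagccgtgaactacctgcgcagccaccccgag
Acot2: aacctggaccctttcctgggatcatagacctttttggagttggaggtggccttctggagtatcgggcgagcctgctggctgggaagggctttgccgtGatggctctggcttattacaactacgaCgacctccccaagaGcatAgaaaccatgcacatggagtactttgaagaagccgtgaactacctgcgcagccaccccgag
The longest run of identical bases in the transcripts was 273, longer than a read of 100 bases, and 16.5% of the windows of 100 bases of the Acot1 transcript were also found in that of Acot2 (17.1% in the other direction). Read pairs that match more than one place were not counted, which may leave both genes undercounted, and their values are uncertain for that reason.

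After 32 weeks Acot1 was at 25.8, 26.7, 25.7, 28 and 27.8 CPM in mice fed PF and at 29.6, 24.3, 22.5, 32.1 and 27.4 CPM in mice fed LO. In mice fed SO it was at 18.0, 16.4, 27.0, 15.8 and 17.4 CPM. Of the SO mice, 4 were below all PF and LO mice, and SO mouse 3 lay among them.

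Acot1 was 0.52 higher in PF than in SO (SE 0.138, 95% interval 0.23 to 0.81, adjusted p = 0.289 with edgeR and 0.0434 with DESeq2) and 0.53 higher in LO than in SO (SE 0.138, 95% interval 0.24 to 0.82, adjusted p = 0.9997 with edgeR and 0.212 with DESeq2), and both differences rest on the same SO mice. The DESeq2 call of Acot1 between PF and SO was held with all 10 mice and without SO mouse 3 (0.69, adjusted p = 4.25e-07). It was lost without any one of the other 9 mice, at adjusted p-values from 0.0557 to 0.162. At 12 weeks Acot1 was at 25.2, 24.1, 33.6, 21.5 and 23.2 CPM in SO and at 23.5, 22.4, 18.1, 21.4 and 19.5 CPM in PF, a difference of -0.28 (SE 0.155, adjusted p = 0.783 in edgeR's test). LO ranged from 16.8 to 31.1 CPM at that age.

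The estimated difference of Acot1 between PF and SO thus had opposite signs at both ages, and the change, 0.78 on the log2 scale (SE 0.215, 95% interval 0.34 to 1.22), had an adjusted p = 0.237 in edgeR's interaction test and 0.0748 with DESeq2. For LO against SO the change was 0.55 (SE 0.215, adjusted p = 0.9998 with edgeR). Within PF every 32 week mouse was above every 12 week mouse (0.35, SE 0.152, adjusted p = 0.430 with edgeR). Within SO the 32 week mice differed by -0.43 (SE 0.152, adjusted p = 0.0892 with edgeR and 0.0581 with DESeq2).

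Acot2 lay between 4.45 and 11.3 CPM in all mice, and its correlation with Acot1 over the 30 mice was 0.42. It was 0.22 higher in PF than in SO at 32 weeks (SE 0.150, adjusted p = 0.619 in edgeR's test), and its largest diet difference was LO against SO at 12 weeks, -0.40 (SE 0.190, adjusted p = 0.999 with edgeR). The ratio of Acot1 to Acot2 in CPM had a median of 2.89 in SO at 32 weeks, against 3.60 in PF and 3.87 in LO. At 12 weeks the medians were 3.52 in SO, 2.91 in PF and 3.94 in LO.

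The 250 bases before the RefSeq starts of Pecr (GRCm38.p6, chr1:72284322-72284571, minus strand) and Acot1 (chr12:84009252-84009501, plus strand), the genes called by DESeq2 between PF and SO at 32 weeks, are shown for reference, and they hold none of the PPAR motifs searched.
Pecr: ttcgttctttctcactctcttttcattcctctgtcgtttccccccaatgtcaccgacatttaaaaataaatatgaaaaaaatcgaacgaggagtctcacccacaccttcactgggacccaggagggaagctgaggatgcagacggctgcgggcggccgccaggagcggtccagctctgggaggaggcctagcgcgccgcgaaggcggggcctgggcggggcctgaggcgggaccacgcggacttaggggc
Acot1: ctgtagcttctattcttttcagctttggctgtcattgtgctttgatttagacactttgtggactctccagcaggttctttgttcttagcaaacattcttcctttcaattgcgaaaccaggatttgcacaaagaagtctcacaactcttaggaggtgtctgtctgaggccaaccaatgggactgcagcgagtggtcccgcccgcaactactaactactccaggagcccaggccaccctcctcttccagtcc
Guanine and cytosine made up 60% of the Pecr window and 48.8% of that of Acot1.

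Angptl4 (chr17:33773750-33781830, minus strand) encodes a secreted inhibitor of lipoprotein lipase, made by adipocytes and other cells when fatty acids are high. After 32 weeks it stood at 10.9, 18.5, 5.86, 11.5 and 18.5 CPM in mice fed PF. Mice fed SO had 2.60, 5.23, 10.2, 3.0 and 7.82 CPM, and mice fed LO had 5.10, 5.78, 4.65, 6.14 and 5.95 CPM. PF mouse 3 lay within the ranges of both other diets, and the other 4 PF mice were above all mice fed SO or LO.

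Angptl4 was 1.19 higher in PF than in SO on the log2 scale (SE 0.359, 95% interval 0.43 to 1.96, adjusted p = 0.349 with edgeR and 0.0699 with DESeq2) and 1.25 higher than in LO (SE 0.360, adjusted p = 0.354 with edgeR and 0.0649 with DESeq2), both against the same PF mice. Without PF mouse 3, the lowest of its group, the DESeq2 test called the difference from SO (1.38, adjusted p = 0.0193). It did so without SO mouse 3, the highest of its group, as well (1.5, adjusted p = 0.0102). Without any one of the other mice Angptl4 was not called. The adjusted p-values of DESeq2 then ran from 0.0823 to 0.287, with none given without SO mouse 2. At 12 weeks PF ranged from 4.2 to 11.3 CPM, SO from 3.03 to 9.68 CPM and LO from 1.72 to 7.17 CPM. The differences of that age were 0.66 for PF against LO (SE 0.382, adjusted p = 0.633 in edgeR's test) and -0.79 for LO against SO (SE 0.382, adjusted p = 0.999). Within PF the 32 week mice were 1.01 higher (SE 0.389, adjusted p = 0.373 with edgeR), and the change of PF against SO from 12 to 32 weeks was 1.32 (SE 0.549, adjusted p = 0.419).

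Angptl4 moved with fat cell markers. The summed level of 10 adipocyte markers, among them Adipoq and Fabp4, was 812, 1137, 150, 403 and 1095 CPM in the PF mice of 32 weeks, against 173, 120, 382, 111 and 483 CPM in SO. The PF mice with the most marker RNA, numbers 2 and 5, had the highest Angptl4, and PF mouse 3 had the least of both. None of the 10 markers was at 0 in any of the 30 mice.

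LO mice of 32 weeks had summed adipocyte markers from 159 to 553 CPM, and at 12 weeks the sums ranged from 105 to 809 in LO, from 150 to 985 in SO and from 227 to 514 in PF. At 32 weeks 9 of the 10 markers were higher in PF than in SO, with a median log2 fold change of 1.81, and 5 had p under 0.05 in edgeR's test, but 0 were called by edgeR or DESeq2. Gene and markers were read from the same library of each mouse. Over the 30 mice the Pearson correlation with the marker level was 0.63 for Angptl4, 0.67 for Cpt2, 0.57 for Acadm, 0.36 for Pecr, 0.29 for Acot1 and -0.07 for Cpt1a. With the marker level as a covariate in edgeR's model, Angptl4 was 0.60 higher in PF than in SO at 32 weeks (SE 0.297, adjusted p = 0.742), while Pecr was 0.46 higher (SE 0.104, adjusted p = 0.320) and Acot1 0.40 higher (SE 0.146, adjusted p = 0.642). Acadm and Cpt2 went to 0.09 and 0.04. Without the covariate the differences were 0.46 in Pecr and 1.19 in Angptl4. The covariate does not separate the number of fat cells from the RNA of each cell, and the cause was not tested.

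**Figure D2:**
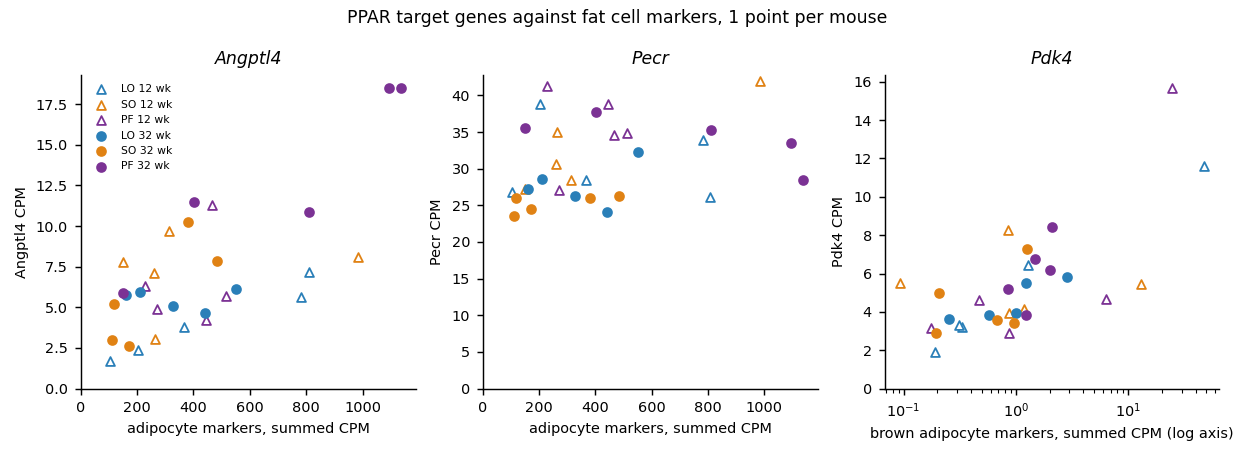
Levels in CPM of Angptl4 and Pecr against the summed CPM of 10 adipocyte markers, and of Pdk4 against the summed CPM of 4 brown adipocyte markers on a log axis, with 1 point per mouse (open triangles, 12 weeks; filled circles, 32 weeks; colours, diets). The PF mice of 32 weeks with 1095 and 1137 CPM of adipocyte markers have the highest Angptl4 (18.5 CPM each), Pecr shows no such slope among them, and the mice with the most brown adipocyte marker RNA, 47.7 and 24.7 CPM, have the highest Pdk4.

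Other marker lists also moved. Between PF and SO at 32 weeks all 5 erythrocyte markers (none at 0 in any mouse) were higher in PF, with a median of 2.48 on the log2 scale and 3 called by DESeq2, and their summed levels ran from 42.4 to 499.5 CPM in PF, from 26.9 to 78.6 in SO and from 49.1 to 143 in LO. Of 7 macrophage and leucocyte markers (none at 0), 0 were higher in PF than in SO at that age, with summed levels of 157 to 389 CPM in PF, 113 to 366 in SO and 113 to 571 in LO. At 12 weeks all 7 were higher in PF than in SO, 5 of them called by DESeq2, with sums of 119 to 262 CPM in PF, 72.4 to 121 in SO and 75.5 to 186 in LO. The 8 markers of ventral prostate epithelium (none at 0) summed to 231200, 125300, 260400, 296600 and 298300 CPM in the 5 PF mice at 32 weeks, against 144600 to 171500 CPM in SO and 107300 to 199700 CPM in LO. In 4 of the 5 PF mice the epithelial sum was thus above that of every SO and LO mouse. Between PF and SO 6 of the 8 were higher in PF, with a median of 0.20 on the log2 scale, and 0 were called by edgeR or DESeq2. The part of blood cells, leucocytes and epithelium in the differences of the 9 genes was not tested.

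Pdk4 (chr6:5483351-5496309, minus strand) encodes the pyruvate dehydrogenase kinase that shuts off the oxidation of glucose-derived pyruvate when fatty acids are burned. At 12 weeks it was at 3.22, 1.93, 11.6, 3.33 and 6.47 CPM in LO, at 3.92, 5.51, 8.29, 5.45 and 4.16 CPM in SO and at 4.66, 2.88, 3.18, 4.61 and 15.7 CPM in PF. At 32 weeks it was at 5.80, 3.61, 3.95, 5.49 and 3.83 CPM in LO, at 2.92, 3.60, 7.26, 3.42 and 5.0 CPM in SO and at 3.85, 8.40, 6.20, 5.17 and 6.74 CPM in PF. The groups overlapped throughout, and LO mouse 3 and PF mouse 5 of the 12 week groups stood far above the rest.

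These 2 mice also had the most RNA of 4 brown adipocyte markers (Ucp1, Cidea, Elovl3 and Cox8b), 47.7 CPM in LO mouse 3 and 24.7 CPM in PF mouse 5. Ucp1, the uncoupling protein of brown fat, was at 32.9 and 13.2 CPM in them, at 8.64 in SO mouse 4 and at 3.47 in PF mouse 1 of 12 weeks, and at 0 in 7 mice. At 32 weeks the marker sum was at most 2.85 CPM. Over the 30 mice the correlation of Pdk4 with the brown marker level was 0.68. Pdk4 was 0.47 higher in PF than in SO at 32 weeks (SE 0.256, adjusted p = 0.519 in edgeR's test) and 0.43 higher than in LO (SE 0.256, adjusted p = 0.664). At 12 weeks the difference of PF from SO was 0.19 (SE 0.502, adjusted p = 0.9999 with edgeR), and it turned to -0.61 (SE 0.393) without the 4 mice named here, to -0.51 without PF mouse 5 alone and to -0.0050 with the replicate number as a block. Within PF, Pdk4 differed by -0.03 between 32 and 12 weeks, and by 0.77 without those mice.

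Counted over the 9 genes, the diet comparisons stood as follows. Between PF and SO at 32 weeks edgeR's adjusted p called 0 of 9 genes (0% of all genes), 4 had an unadjusted p under 0.05 (Acadm, Acot1, Angptl4 and Pecr; 10.8% of all genes), and DESeq2 called 2 (0.697% of all genes). In 1 gene, Pecr, the groups did not overlap, as in 2.18% of all genes. Between PF and LO at 32 weeks, which share the PF mice with that comparison, edgeR and DESeq2 called 0 of 9 (0% and 0.524% of all genes), 2 had p under 0.05 (8.6% of all genes), and 8 of 9 were higher in PF (51.2% of all genes), with a median of 0.15. Between LO and SO at 32 weeks both tools called 0 (0% and 0.0432%), 1 gene, Acot1, had p under 0.05 (3.48%), and 8 of 9 were higher in LO (49.3% of all genes), with a median of 0.05 on the log2 scale. Groups that did not overlap were found in 0 of 9 genes in these comparisons (1.13% of all genes for PF against LO and 0.641% for LO against SO).

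At 12 weeks edgeR and DESeq2 called 0 of 9 genes in each diet comparison, against 0% of all genes with edgeR and 1.23%, 0.523% and 0% with DESeq2, in the order PF with SO, PF with LO, LO with SO. An unadjusted p under 0.05 was found for 1 gene, Cpt1a, in PF against SO (7.99% of all genes) and in PF against LO (9.24%), and for 0 genes in LO against SO (4.28%). PF was the higher diet for 2 of 9 genes against SO (44.8% of all genes) and for 4 of 9 against LO (49.9%), and LO was the higher for 3 of 9 against SO (50.6%). Groups overlapped for all 9 genes in each comparison, with 1.57%, 1.59% and 0.731% of all genes not overlapping in the same order. Counts of genes on one side are not 9 independent results, since the genes were measured in the same mice.

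**Figure D3:**
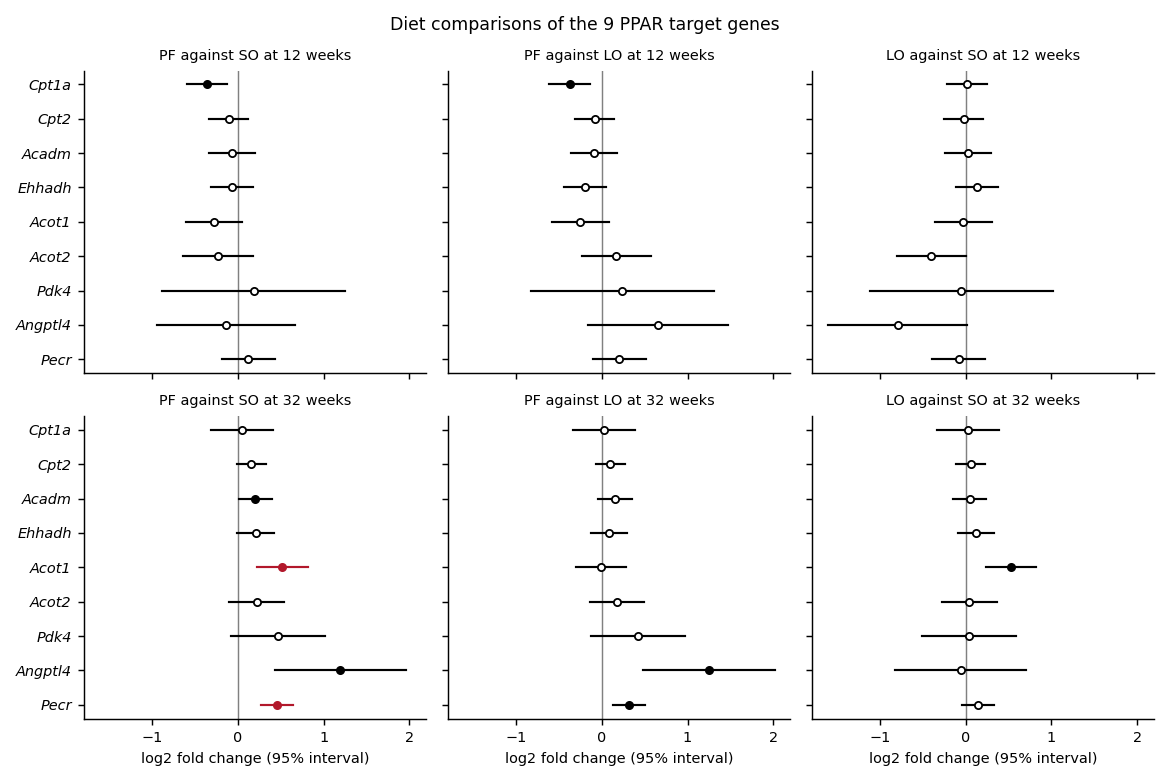
Log2 fold change (horizontal axis) of each of the 9 genes in the 6 diet comparisons, as points with 95% intervals from edgeR's test. Filled points have an unadjusted p under 0.05 and red marks an adjusted p under 0.05 with DESeq2, and the points of PF against SO lie mostly left of 0 at 12 weeks and all right of it at 32 weeks, where Acot1 and Pecr are red.

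Across time, edgeR called 0 of 9 genes within each diet, against 2.7% of all genes in LO, 6.46% in SO and 0.0301% in PF. In SO all 9 genes were lower at 32 weeks (median -0.30; 49.2% of all genes were higher), Acot1 and Pecr had p under 0.05 (19.7% of all genes), and DESeq2 called Pecr (9.12% of all genes), the 1 gene whose groups did not overlap (7.44% of all genes). That call was lost without SO mouse 4 or 5 of 12 weeks or any one of the 5 SO mice of 32 weeks, at adjusted p-values from 0.0528 to 0.213. In edgeR's test, Pecr passed without SO mouse 2 of 12 weeks (adjusted p = 0.0428) and Acot1 without SO mouse 3 of 32 weeks (adjusted p = 0.0177). In LO 3 of 9 genes were higher at 32 weeks (47.8% of all genes), 0 had p under 0.05 (20.5%), DESeq2 called 0 (6.47%) and 0 did not overlap (4.25%). In PF 7 of 9 were higher (50.7%), 3 had p under 0.05, namely Acadm, Acot1 and Angptl4 (10.2%), DESeq2 called 0 (0.307%), and 1, Acot1, did not overlap (1.55%).

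The comparisons of 32 with 12 weeks also moved with markers of leucocytes, muscle, epithelium and erythrocytes. Within SO all 7 leucocyte markers were higher at 32 weeks (median 1.51; 6 called by edgeR and 7 by DESeq2), and within LO all 7 were as well (median 0.93), whereas in PF their median was 0.07. The 8 markers of skeletal muscle were higher at 32 weeks in all 8 cases in SO (median 2.67) and in LO (median 2.96), and in 7 of 8 in PF (median 1.80). Single mice stood out in LO and PF. LO mouse 1 had a sum of 742 CPM at 32 weeks and the others 74.0 to 118.5, against 66.4 to 164 at 12 weeks. PF mouse 3 had 620.5 CPM and the others 48.2 to 171, against 73.1 to 173 at 12 weeks. In SO the sums ran from 58.5 to 393 CPM at 32 weeks and from 85.4 to 130 at 12 weeks. The summed epithelial markers did not overlap between the ages in SO (225900 to 321000 CPM at 12 weeks, 144600 to 171500 at 32 weeks) or in LO (203900 to 326200 and 107300 to 199700), with 1 of the 8 called lower at 32 weeks by edgeR and by DESeq2 in each diet. The single markers did not all follow the sum. In LO 3 of the 8 were higher at 32 weeks and 5 lower, with a median of -0.07 and a range from -0.81 to 0.50. In PF the sums ran from 179300 to 335900 CPM at 12 weeks and overlapped the 32-week range. All 5 erythrocyte markers were higher at 32 weeks in PF (median 2.04; 0 called by edgeR and 3 by DESeq2) and in LO (median 0.28), as was 1 of 5 in SO (median -0.28). Adipocyte markers were lower at 32 weeks in 9 of 10 cases in SO (median -0.78) and higher in 9 of 10 in PF (median 0.95), as were the 9 genes in SO and 7 of the 9 in PF. With the adipocyte level as a covariate in edgeR's model, the difference of 32 from 12 weeks in SO was -0.34 (adjusted p = 0.129) for Pecr and -0.40 (adjusted p = 0.152) for Acot1. The part of leucocytes, muscle, epithelium and blood cells in the differences between the time points was not tested.

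For the change of the PF against SO difference from 12 to 32 weeks, all 9 genes were above 0 (median 0.32; 49.2% of all genes), Acot1 and Angptl4 had p under 0.05 (9.49% of all genes), and edgeR and DESeq2 called 0 (0% and 0.259%). For PF against LO, 8 of 9 were above 0 (50.5%) with a median of 0.23, and 0 had p under 0.05 (7.79%) or were called by edgeR (0%) or DESeq2 (0.0843%). For LO against SO, 8 of 9 were above 0 (48.4%), Acot1 alone had p under 0.05 (3.33%), and both tools called 0 (0% of all genes each).

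Wider lists of the pathway were also counted, which include the 9 genes where they belong. Of 23 tested genes of mitochondrial fatty acid oxidation, 21 were higher in PF than in SO at 32 weeks (median 0.16), 2 had p under 0.05 and 0 were called by edgeR or DESeq2. Of all genes tested there, 49.3% were higher in PF and 10.8% had p under 0.05. The smallest p in edgeR's test was that of Echs1, the enoyl-CoA hydratase, 94.6 ± 5.07 CPM in PF and 83.9 ± 4.82 in SO (0.19 on the log2 scale, adjusted p = 0.385). It was the 1 gene of the 23 whose groups did not overlap, against 2.18% of all genes. At 12 weeks 20 of the 23 were lower in PF (median -0.08), where 44.8% of all genes were higher in PF. Of 18 peroxisomal genes, 15 were higher in PF at 32 weeks (median 0.11) with Pecr the 1 called by DESeq2, and of 10 acyl-CoA thioesterases all 10 were higher (median 0.19) with Acot1 the 1 called. DESeq2 called 0.697% of all genes in that comparison. Against LO the counts at 32 weeks were 19 of 23, 16 of 18 and 9 of 10, again with the same PF mice, while 51.2% of all genes were higher in PF.

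Across time in LO, edgeR called 1 of the 23 genes of mitochondrial oxidation, against 2.7% of all genes tested (6.47% with DESeq2). Acad11, an acyl-CoA dehydrogenase for long and very long chains, fell in LO from 85.3 ± 12.3 CPM at 12 weeks to 68.0 ± 6.0 at 32 weeks (-0.33 on the log2 scale, SE 0.0745, adjusted p = 0.0190 with edgeR and 0.00220 with DESeq2). In SO it was lower in every 32 week mouse than in every 12 week mouse (-0.23, adjusted p = 0.0584 with edgeR and 0.0242 with DESeq2). So was Eci1, an enoyl-CoA isomerase (-0.24, adjusted p = 0.0640 and 0.0354). DESeq2 thus called 2 of the 23 in SO, against 9.12% of all genes, and 3 of the 23 did not overlap, against 7.44%. In PF, 17 of the 23 mitochondrial genes were higher at 32 weeks and 7 had p under 0.05, against 50.7% and 10.2% of all genes tested. Eci2, another enoyl-CoA isomerase, was called by DESeq2 there, as were 0.307% of all genes. It had 46.9 ± 8.82 CPM at 12 weeks and 74.7 ± 12.5 at 32 weeks (0.67, SE 0.144, adjusted p = 0.0873 with edgeR and 0.00548 with DESeq2). Pex11a, a peroxisome division gene, was lower at 32 weeks in LO (-0.41, adjusted p = 0.0511 with edgeR and 0.0199 with DESeq2). It was the 1 of 18 peroxisomal genes called by DESeq2 there, against 6.47% of all genes.

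**Figure D4:**
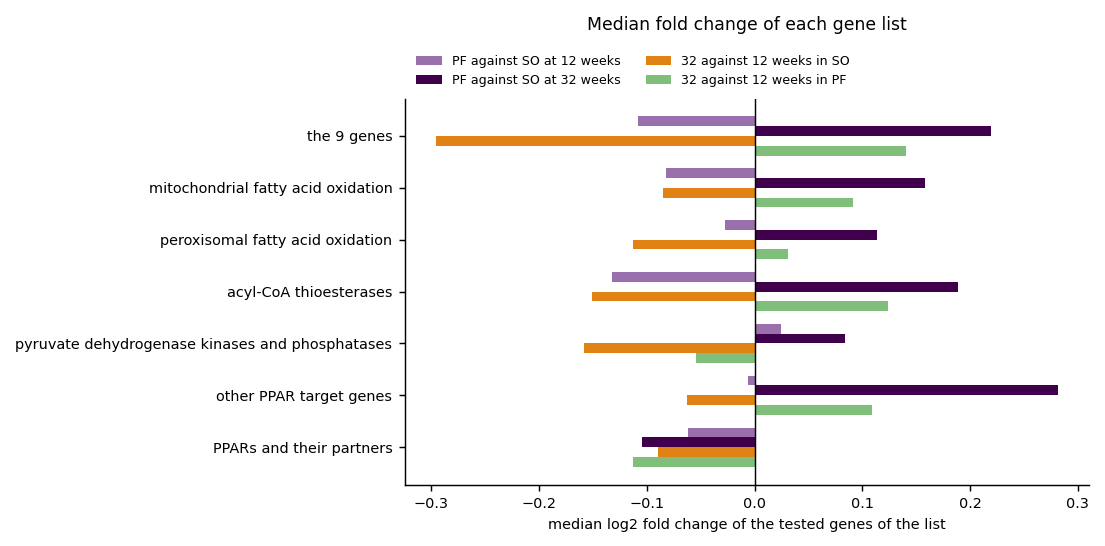
Median log2 fold change (horizontal axis) of the tested genes of each pathway list and of the 9 genes, as bars, in PF against SO at 12 and at 32 weeks and in 32 against 12 weeks within SO and within PF. The bars of PF against SO at 32 weeks are above 0 for 6 of the 7 lists, with 0.22 for the 9 genes and 0.16 for mitochondrial fatty acid oxidation, and below 0 (-0.10) for the PPARs and their partners.

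The receptors and their partners were followed as well. Ppard had the highest mean over the 30 mice, 18.0 CPM, against 3.16 for Ppara and 3.85 for Pparg. Per kilobase of exon they stood at 2.40, 0.825 and 1.31 CPM. Of the 14 receptors and partners (RXRs and coactivators included), 11 were lower in PF than in SO at 32 weeks (median -0.10), where 49.3% of all genes were higher in PF. Pparg, the receptor of adipocytes, was among the 3 that were higher, with 5.73 ± 2.80 CPM in PF and 2.49 ± 1.03 in SO (1.22, SE 0.355, adjusted p = 0.331 with edgeR and 0.0616 with DESeq2). Ppara was lower in PF than in LO at 12 weeks, 2.98 ± 0.466 against 3.91 ± 0.557 CPM (-0.39, SE 0.137, adjusted p = 0.454 with edgeR).

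Among 13 tested genes of a further list of PPAR targets, which includes Angptl4, 10 were higher in PF than in SO at 32 weeks (median 0.28), with Angptl4 the only gene of that list at p under 0.05. The shares of all genes in that comparison were 49.3% higher in PF and 10.8% at p under 0.05. Plin2, which coats lipid droplets, was 0.49 higher in PF than in SO at 12 weeks (22.0 ± 4.85 against 15.7 ± 2.33 CPM, adjusted p = 0.436 with edgeR). Several targets that mark PPARα activity in liver, Cyp4a10, Cyp4a14, Fabp1 and Fgf21, were under 0.3 CPM in every mouse and did not pass the filter, nor did Cpt1b, the muscle form of Cpt1a. Of the kinases and phosphatases of pyruvate dehydrogenase, Pdp2 was 0.29 lower in PF than in SO at 12 weeks (SE 0.0846, adjusted p = 0.239 with edgeR).

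The 9 genes were not tightly joined among themselves over the 30 mice. Their 36 pairwise Pearson correlations of log2 CPM had a median of 0.25 and ran from -0.13 to 0.66, the highest being Acot2 with Angptl4 and the next Acadm with Pdk4 (0.65) and Cpt2 with Acadm (0.64). Among all genes, those most like Pecr over the 30 mice were Crabp1 (0.90), Copz2 (0.89) and Atg5 (0.88). Most like Angptl4 were Rbp7 (0.78), Esam (0.76) and Pck1 (0.73), most like Pdk4 were the brown fat genes Cidea (0.68) and Nrg4 (0.68) with Ucp3 (0.66), and most like Acot1 were Fam19a5 (0.66), Hoxa3 (0.64) and Acadl (0.62). Cpt1a was closest to Cmtm4 (0.85), Cpt2 to Fcor (0.87), Acadm to Ppp2r5a (0.84), Ehhadh to Elp3 (0.85) and Acot2 to 1700112J16Rik (0.68). The mice share diet, age and tissue make-up within groups, so these values describe the samples and carry no test.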

How the data were processed

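RNA of the VP was sequenced from 30 mice (TruSeq Stranded mRNA libraries, paired reads of 100 bases). The authors aligned the reads and deposited 1 table of raw read pair counts per gene and mouse, without normalization. TopHat2, HTSeq, DESeq2 and GRCm38.p6 are named in the submitters' processing notes, without versions, and the annotation release and strand setting are not given in the sources used here. Pairs on no gene, in 5 lines of each table, were left out (23.7% to 32.2% of pairs). Symbols came from GENCODE M21 for 37693 of 39179 genes, and sequences from RefSeq and GENCODE on GRCm38.

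The 3 diets of a time point (15873 genes at 12 weeks, 16218 at 32 weeks) or all 6 groups (16605 genes) were fitted with edgeR 4.0.16 (R 4.3.3, limma 3.58.1) after filterByExpr and TMM, the quasi-likelihood F test (two-sided) being adjusted over all genes by Benjamini and Hochberg's method, with a threshold of 0.05. The SE was derived from the F statistic. The Wald test of DESeq2 1.42.0 was an alternative. Log2 CPM used a prior count of 2. Exon lengths were GENCODE unions. Other alternatives were the scaling, filter, fit, threshold, replicate block and each mouse left out, and, after seeing the data, marker covariates, mice left out for Ucp1, and DESeq2 with the block or with mice left out. Genes named from a list were those called by a tool or with the smallest p. The 9 genes and all lists were chosen with earlier results of these data known, and neither the 9 genes nor the lists are therefore independent evidence. The edgeR test was also run on simulated counts, with changes larger than most reported here and the same spread for all genes. That run does not bear on small differences or on genes as uneven as Angptl4 and Pdk4. No mice shared one library by their counts (60 pairs, lowest chi-square per degree of freedom 24.5).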

Additional observations from a re-analysis of the deposited data

Results flagged for a closer look

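In 54 groups of 5 mice (9 genes in 6 groups), 4 single mice stood apart from the rest of their group, the gap to the nearest mouse being over 0.71 of the group's range. Chance gives about 1 in 20 groups. Cpt1a was at 142.2 CPM in PF mouse 4 at 12 weeks, against 107.1 to 114.2 in the others. Acot2 was at 8.528 CPM in the same mouse, against 6.324 to 6.911. Acot1 was at 27.04 CPM in SO mouse 3 at 32 weeks, against 15.76 to 18.04. Pdk4 was at 15.69 CPM in PF mouse 5 at 12 weeks, against 2.882 to 4.659.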

How the results depend on the processing

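With edgeR 0 of the 9 genes were called in all 12 comparisons. DESeq2 called 2 between PF and SO at 32 weeks (1 to 3 with each mouse left out) and 1 between 32 and 12 weeks in SO (0 to 1). In SO over time edgeR called 2 at an adjusted p under 0.1 (1742 of all 16605 genes) and, at 0.05, from 0 to 1 with each mouse left out. The mice numbered 1 deviated together at both ages (6 pairs, correlations of 0.32 to 0.511). Over all numbers, 5 of 15 same-numbered pairs at 12 weeks (mean 0.0673) and 10 of 15 at 32 weeks (mean 0.127) were over 0.1, so the numbers were not taken to pair the mice throughout. Without the mice numbered 1 edgeR called 0 of the 9. With a block for the replicate number edgeR called 0, and DESeq2 with the block, an alternative chosen after seeing the data, called 3 between PF and SO and 1 between PF and LO at 32 weeks, and 2 in SO over time. The count over all genes in that setting is not given here, so these calls cannot be set against it. Of 413 refits of 35 reported fold changes under other settings, 395 kept direction and side of the threshold, 11 passed it and 7 changed sign, all for Pdk4. Pdk4 in PF against SO at 12 weeks (0.19) went to -0.0050 with the block, -0.019 with DESeq2 and the block, -0.61 without the 4 mice with Ucp1 over 1 CPM, and -0.51 to 0.39 with each mouse left out. Pdk4 over time in PF (-0.03) went to 0.083 with the block, 0.094 with DESeq2 and the block, 0.022 without the mice numbered 1, 0.77 without the Ucp1 mice, and -0.20 to 0.68 with each mouse left out. Cpt1a in PF against SO at 32 weeks (0.05) ran from -0.050 to 0.21 with each mouse left out, with -0.043 the lowest for DESeq2. The cause was not tested. Over all genes, edgeR's calls over time (448 in LO, 1073 in SO, 5 in PF) went to 1075, 1515 and 51 with DESeq2 and to 56, 562 and 0 without the Ucp1 mice, and its calls between diets, 0 in each of 6 comparisons, went to between 0 and 196 with DESeq2. Pdk4 and Angptl4 had the fewest counts and the widest spread, which limits them most.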
